A study of Mus musculus with 2 samples.

Results

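The genes examined here encode the heat shock chaperones of the cytosol and mitochondria and their co-chaperones: the Hsp70, Hsp110, Hsp90, small heat shock protein and Hsp40 families, the chaperonins, the BAG exchange factors, the Hsp90 and Hsp70 co-chaperones and the heat shock factors. The list named 48 genes, and a probe set was taken for a member when the platform annotation gave it that 1 gene symbol. Such probe sets were found for 46 of the 48 members, out of 18193 genes represented in the same way on the array. Hsp90ab1 and Hsf1 were not analysed here. The 46 members had 121 probe sets, of which 99 were above the floor described below on both arrays.

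Chaperones bind proteins that are not yet folded, or that have lost their fold, and keep them from clumping until they fold, are assembled or are degraded. Hsp70 proteins do so in cycles of ATP hydrolysis that Hsp40 proteins start and exchange factors reset, Hsp90 proteins act later on a narrower set of clients, and small heat shock proteins hold unfolded proteins without using ATP. Heat and other protein-damaging stress activates the heat shock factor HSF1, which binds repeated GAA units in promoters and induces part of these genes, while others are made at steady levels in unstressed cells. Pancreatic beta cells make and fold large amounts of proinsulin, which takes place in the endoplasmic reticulum and uses other chaperones than those examined here.

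The aim of the study was to find targets of ZBTB20, a zinc finger transcription factor, in beta cells. It compared 1 array of islets labelled as coming from mice with a beta cell-specific knockout of Zbtb20 with 1 array of islets from wildtype littermate controls. Both groups were adult mice of 2 to 3 months and mixed background, and both islet preparations were digested out with collagenase, hand-picked, left in culture overnight and frozen, and RNA was labelled with biotin for Affymetrix arrays. The sources used here do not give the driver of the deletion, the deleted part of the gene or the number of animals per array. The 9 probe sets of Zbtb20 had a median log2 ratio of -0.062 (range -0.87 to 0.54), lower for 5 and higher for 4. A probe set outside the deleted part, and islet cells other than beta cells, would not register the deletion, so the array is called knockout-labelled below.

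With 1 array per group there were no replicates, so no p-value or replicate error exists, and a ratio sets 1 RNA preparation against another. Values are MAS5 signals, linear intensities in arbitrary units. Ratios are knockout-labelled over control on the log2 scale, so a positive value is higher in knockout-labelled islets. The brightest probe set stood for its gene. Signals under the array's 50th percentile (21.7 in knockout-labelled and 21.6 in control islets) were raised to that floor, and genes at or under it on both arrays were left out, which kept 11802 genes. Differences of 2-fold or more were counted. As the only guides to error, probe sets of 1 gene had log2 ratios with a median SD of 0.21 over 4719 genes, and the central 95% of genes with mean signals of 300 to 1000 ran from -0.58 to 0.64. Because islets are a mixture of cells, fewer cells of a type and less RNA per cell cannot be told apart.

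Of the 46 measured members, 45 were above the floor on both arrays and 1, Hsf2, on the knockout-labelled array only. Most were at nearly equal signals on the arrays, and a few stress-inducible genes were clearly lower in knockout-labelled islets. The inducible Hsp70 genes Hspa1a and Hspa1b and the small heat shock protein genes Hspb8 and Cryab were at least 2-fold lower, and no member was at least 2-fold higher. That is 4 of 46 members lower, or 8.70%, where 1.44% of all genes were lower. The members were chosen with earlier results of these data known, so their share is not independent of the values. Hspa1a and Hspa1b are not separated by their probe sets, and counting them as 1 gene left 3 lower members. The call of Cryab depended on the processing, as described below. Among all genes 1.82% were at least 2-fold higher. At a limit of 1.5-fold, 5 members were lower and none higher, against 6.2% lower and 6.9% higher among all genes. The fifth was the exchange factor gene Bag2. The median log2 ratio was -0.051 over the members and 0 over all genes, and 32 of the 46 members (69.6%) lay within 0.2 of 0, as did 48.1% of all genes. These shares are not matched for signal. Over all genes the SD of the log2 ratio was 0.50 for mean signals under 100 and 0.30 for those of 1000 and above.

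**Figure D1:**
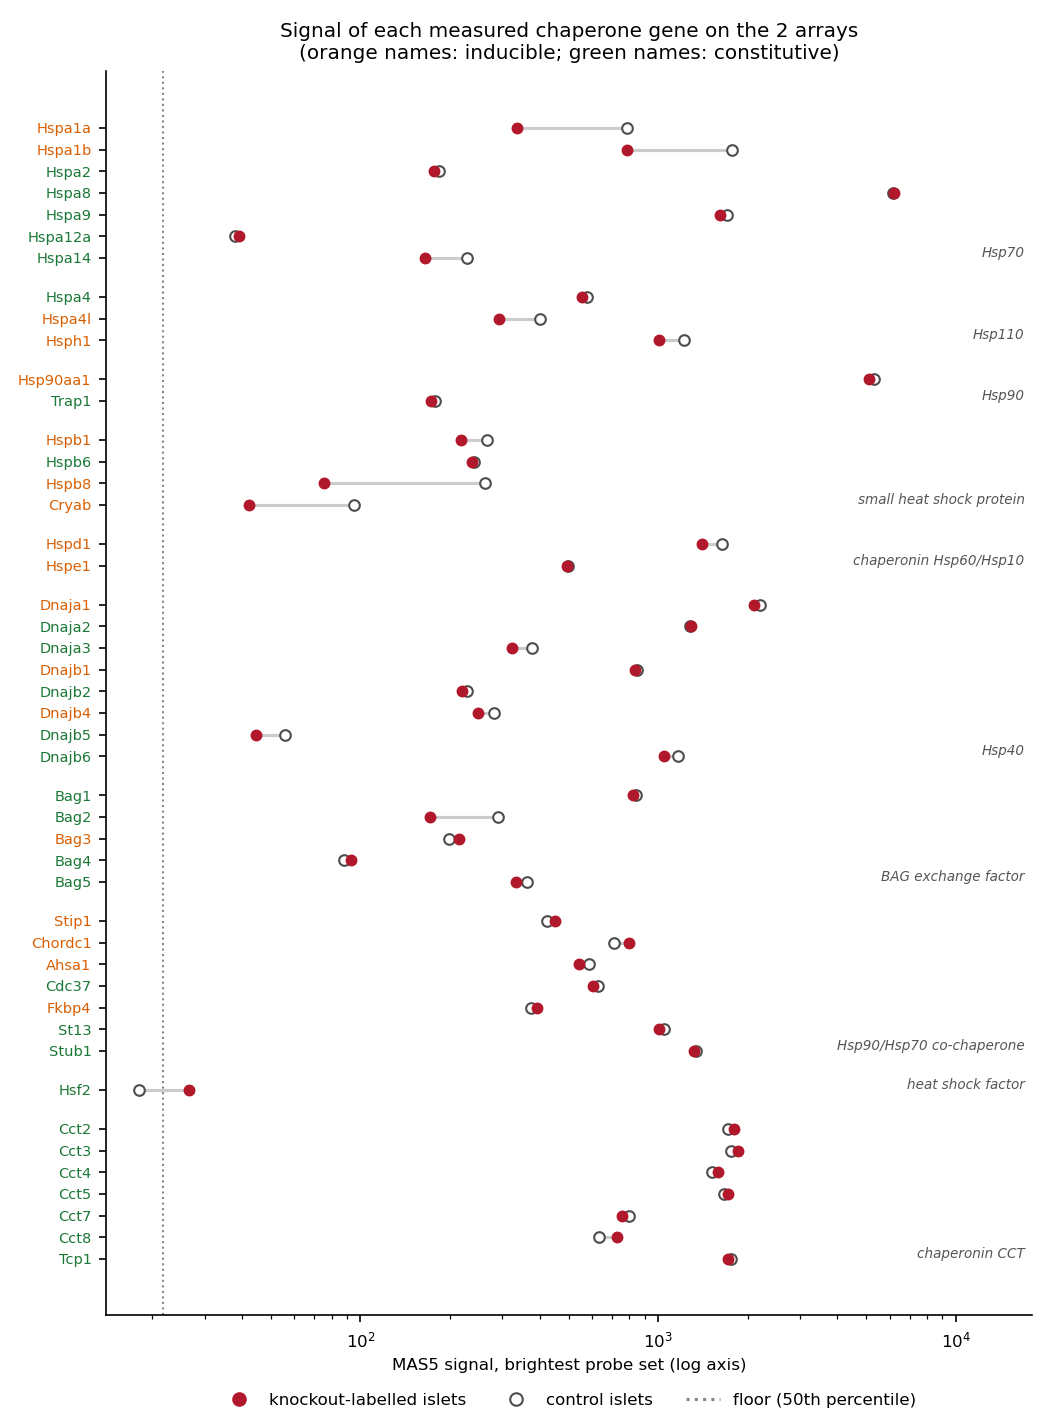
MAS5 signal (log axis) of each of the 46 measured chaperone genes in knockout-labelled islets (filled red) and control islets (open), 1 array each, grouped by family, with the floor as a dotted line. Long connecting bars mark Hspa1a, Hspa1b, Hspb8, Cryab and Bag2, all lower in knockout-labelled islets, and the pairs of the CCT chaperonin genes nearly coincide.

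In the Hsp70 family, only the pair Hspa1a and Hspa1b was past 2-fold. Hspa1a and Hspa1b encode the stress-induced cytosolic Hsp70 and lie near each other on chromosome 17 as near-identical copies. Hspa1a had a signal of 336 in knockout-labelled and 786 in control islets, 2.34-fold lower (log2 ratio -1.23). Hspa1b had 789 in knockout-labelled and 1763 in control islets, 2.24-fold lower (log2 ratio -1.16). The 2 other probe sets of Hspa1b gave 608 and 747 in knockout-labelled against 1550 and 1727 in control islets, log2 ratios of -1.35 and -1.21. All 4 probe sets of these genes therefore lay below the central 95% of genes of their signal range, which for signals of 1000 and above ran from -0.68 to 0.42. Since their transcripts are so alike, each probe set can take up the other gene's RNA, and the 4 values do not separate the genes.

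Of the other Hsp70 genes, all but Hspa14 were near equality. Hspa8 encodes the constitutive cytosolic Hsp70, Hsc70, and had 6175 in knockout-labelled and 6165 in control islets (log2 ratio 0.0022), with its 3 other probe sets at -0.11, 0.10 and 0.29. Hspa9, which encodes the mitochondrial Hsp70 mortalin, had 1618 in knockout-labelled and 1703 in control islets. Hspa2, best known from the testis, was at 177 in knockout-labelled and 183 in control islets, and Hspa12a, a distant relative, at 39.1 in knockout-labelled and 38.0 in control islets. Hspa14, a ribosome-associated Hsp70, was lower by less than 1.5-fold, with 165 in knockout-labelled and 228 in control islets and log2 ratios of -0.47 and -0.51 in its 2 probe sets above the floor. The Hsp70 family thus held 2 genes past 2-fold, both inducible, and 5 that were not.

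The promoters of Hspa1a and Hspa1b are shown because all 4 probe sets of this gene pair were more than 2-fold lower. The RefSeq windows (GRCm38.p6) run from 250 bases before the start site to 50 from it on, at chr17:34972107-34972406 for Hspa1a and chr17:34959189-34959488 for Hspa1b, both on the minus strand. They are written 5′ to 3′, and capitals mark 2 alternating heat shock units.
Hspa1a: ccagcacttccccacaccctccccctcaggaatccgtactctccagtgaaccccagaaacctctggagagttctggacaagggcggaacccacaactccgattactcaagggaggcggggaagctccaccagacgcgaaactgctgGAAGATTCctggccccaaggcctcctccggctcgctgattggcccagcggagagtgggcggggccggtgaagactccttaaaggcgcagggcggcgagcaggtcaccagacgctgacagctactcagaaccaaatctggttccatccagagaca
Hspa1b: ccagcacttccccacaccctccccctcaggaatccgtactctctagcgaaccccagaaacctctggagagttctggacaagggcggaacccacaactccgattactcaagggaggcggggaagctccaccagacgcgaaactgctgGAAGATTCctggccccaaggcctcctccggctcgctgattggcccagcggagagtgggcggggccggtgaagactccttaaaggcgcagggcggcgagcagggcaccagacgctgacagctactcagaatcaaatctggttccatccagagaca
The windows were identical at 296 of 300 bases (98.7%). Both held the same match, which begins 104 bases before the start site.

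The motif search used 3 alternating units, GAANNTTCNNGAA on either strand, and 2 alternating units, GAANNTTC or TTCNNGAA, which also lie inside every match of 3. A promoter table of 32851 windows held 3 units in 0.603% of windows and 2 units in 15.1%. Counted by gene, as for the members below, 3 units were found in 0.662% and 2 units in 17.0% of 27025 genes. It matched 39 of the 48 members by symbol, with 54 windows. Of these 39 genes, 5 had 3 units in a window, namely Hspd1, Hspe1, Hsph1, Chordc1 and Dnajb6, and 18 had at least 2 units. In the class called inducible here, 12 of 16 matched genes had at least 2 units, and in the constitutive class 6 of 23. A match is a run of exact letters and not a measured binding site. A unit with a changed base was not counted, so the number of units does not rank the heat shock elements of these genes by strength. The 5 genes with 3 units had log2 ratios of -0.29 to 0.18, so none of them was among the members past 2-fold. Of the 4 members past 2-fold, Hspa1a, Hspa1b and Hspb8 had a window in the promoter table. Cryab had none there, so its promoter was not searched.

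**Figure D2:**
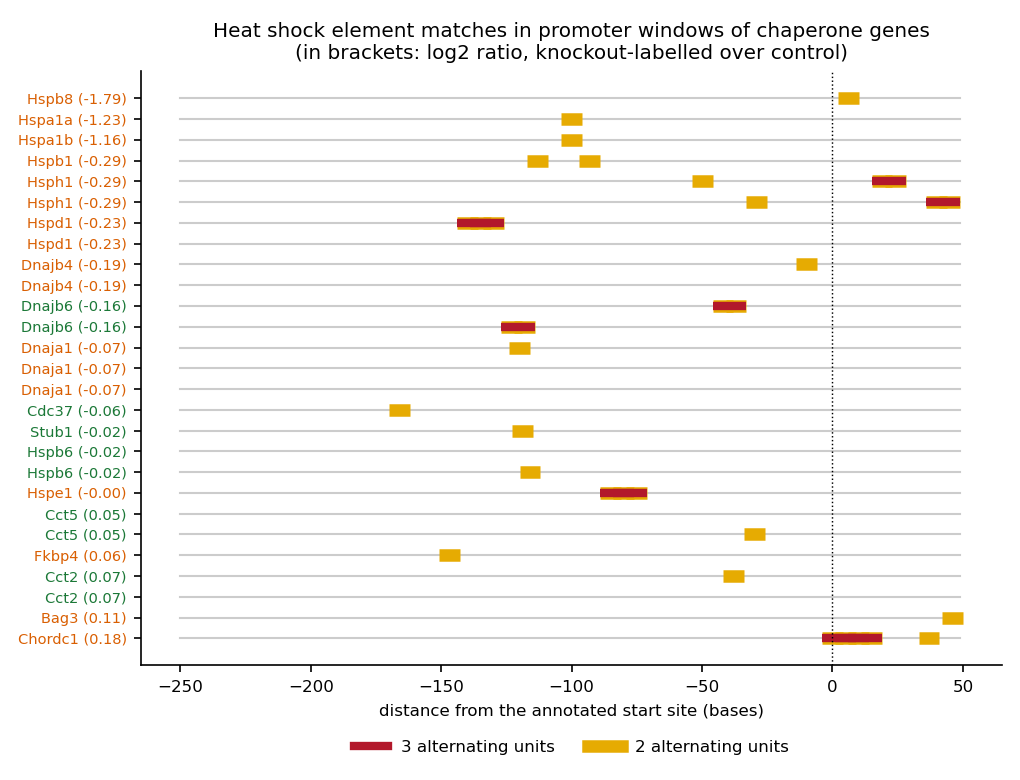
Position of heat shock unit matches in the promoter windows of chaperone genes that hold at least 1, as distance from the annotated start site in bases, ordered by log2 ratio (in brackets; orange names inducible, green constitutive). Hspb8, Hspa1a and Hspa1b, at the top with ratios of -1.79 to -1.16, hold exact matches of 2 units (yellow). Exact matches of 3 units (red) belong to genes at -0.29 and above. Units with a changed base are not shown, and Cryab had no window.

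The small heat shock proteins included the member farthest from equality. Hspb8 encodes a small heat shock protein that works with BAG3 in the removal of misfolded proteins. It had 75.7 in knockout-labelled and 262 in control islets, 3.46-fold lower (log2 ratio -1.79). Another probe set gave 49.1 in knockout-labelled and 156 in control islets (log2 ratio -1.67). The third, an _x_at probe set, which can bind other transcripts, had 51.8 in knockout-labelled and 45.7 in control islets and went the other way (log2 ratio 0.18). The mean over the 3 probe sets was -1.09. For signals of 100 to 300 the central 95% of all genes ran from -0.71 to 0.77.

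Cryab, which encodes alpha B-crystallin, a small heat shock protein of lens and muscle, was at weaker signals. It had 42.4 in knockout-labelled and 95.5 in control islets, 2.25-fold lower (log2 ratio -1.17). Its 2 other probe sets were not above the floor on both arrays. The call was lost with the mean over its probe sets above the floor on at least 1 array (-0.67). It was also lost with a floor at the 70th percentile (-0.48) and with a pseudocount of 16 in place of a floor (-0.93). Hspb1, the small heat shock protein called Hsp25 in the mouse, was at 218 in knockout-labelled and 267 in control islets, with log2 ratios of -0.29 and -0.51 in its 2 probe sets. Hspb6 had 237 in knockout-labelled and 240.0 in control islets. All 4 listed genes of the family were below 0, with a median log2 ratio of -0.73, where 49.8% of all genes were below 0. Hspb2, a small heat shock protein gene on the wider list described below, was at 0.14. Its signals were near the floor (24.2 in knockout-labelled and 21.9 in control islets).

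The promoter window of Hspb8 is shown for comparison with those of Hspa1a and Hspa1b, with 2 heat shock units in capitals. It lies at chr5:116422815-116423114 on the minus strand.
Hspb8: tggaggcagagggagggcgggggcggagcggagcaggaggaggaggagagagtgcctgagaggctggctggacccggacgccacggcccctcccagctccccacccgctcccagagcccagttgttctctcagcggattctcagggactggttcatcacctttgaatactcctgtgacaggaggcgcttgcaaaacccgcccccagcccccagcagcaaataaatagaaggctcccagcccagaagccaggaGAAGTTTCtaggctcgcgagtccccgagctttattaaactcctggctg
The match in Hspb8 begins 2 bases after the start site.

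**Figure D3:**
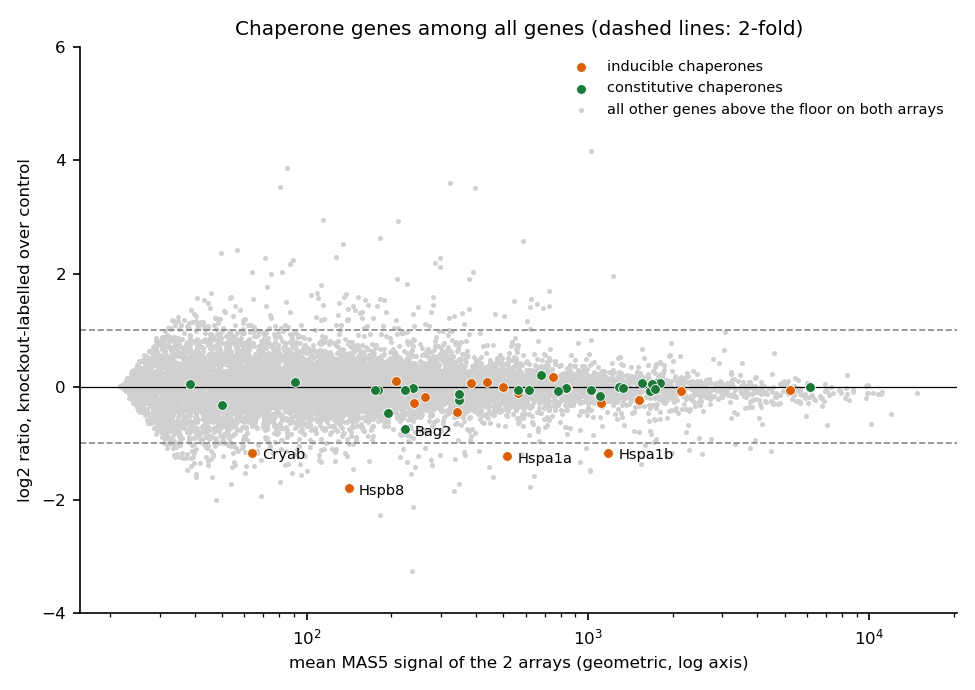
Log2 ratio of knockout-labelled over control against the geometric mean MAS5 signal (log axis), with inducible chaperones in orange, constitutive ones in green and all other genes above the floor on both arrays in grey, and 2-fold as dashed lines. Hspb8, Hspa1a, Cryab and Hspa1b lie below the lower line, Bag2 lies just above that line at -0.75, and no chaperone lies above the upper line.

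The Hsp110 proteins are relatives of Hsp70 that act as its exchange factors. Hspa4l was at 293 in knockout-labelled and 400 in control islets (log2 ratio -0.45), and all 5 of its probe sets were below 0, from -0.83 to -0.22. Hsph1, the stress-induced member, was at 1005 in knockout-labelled and 1225 in control islets (log2 ratio -0.29), while its other probe set gave 584 in knockout-labelled and 582 in control islets (0.0040). Hspa4, the constitutive member, was at 555 and 576 in knockout-labelled and control islets. None of the 3 reached 1.5-fold.

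The measured Hsp90 genes were close to equal. Hsp90aa1, the stress-responsive cytosolic form, had 5118 in knockout-labelled and 5326 in control islets (log2 ratio -0.057), and its 3 probe sets above the floor on both arrays lay between -0.084 and -0.057. Trap1, the mitochondrial Hsp90, had 172 in knockout-labelled and 178 in control islets. Signals as bright as those of Hsp90aa1 and Hspa8 can be compressed.

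Hsp40 proteins deliver clients to Hsp70 and start its ATP hydrolysis. Dnajb1, the main stress-induced Hsp40 partner of Hspa1a, had 835 in knockout-labelled and 846 in control islets (log2 ratio -0.019), and its other probe set gave 755 in knockout-labelled and 770 in control islets (-0.029). Both are near 0, where the Hsp70 genes it works with were more than 2-fold lower. Dnaja1, another heat-responsive Hsp40, had 2093 in knockout-labelled and 2195 in control islets. Over the 8 Hsp40 genes the log2 ratios ran from -0.32 (Dnajb5) to 0.0018 (Dnaja2). Dnaja3, the mitochondrial Hsp40, was at -0.23, and Dnajb4, Dnajb6 and Dnajb2 were at -0.19, -0.16 and -0.051.

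BAG proteins bind Hsp70 and promote release of its nucleotide. Bag2, an inhibitor of the ubiquitin ligase encoded by Stub1, had 172 in knockout-labelled and 289 in control islets, 1.68-fold lower (log2 ratio -0.75), from 1 probe set. Bag3, a stress-induced BAG protein and the partner of Hspb8, had 215 in knockout-labelled and 199 in control islets (log2 ratio 0.11), also from 1 probe set. Bag1, Bag4 and Bag5 were at -0.028, 0.078 and -0.12. Bag3 was therefore not lower on the array on which Hspb8 was.

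Co-chaperones that link or regulate Hsp70 and Hsp90 were near equality. In their brightest probe sets all 7 lay within 0.2 of 0, with a range from -0.12 for Ahsa1, the activator of the Hsp90 ATPase, to 0.18 for Chordc1. Stip1, the adaptor that joins Hsp70 to Hsp90, had 450 in knockout-labelled and 423 in control islets. Chordc1, an Hsp90-binding protein, had 800 in knockout-labelled and 708 in control islets. Fkbp4, an immunophilin of steroid receptor complexes, was at 0.065, and Cdc37, the adaptor for kinases, at -0.063. St13, an Hsp70-interacting protein, was at -0.051. Stub1, the ligase CHIP that marks chaperone clients for degradation, had 1323 in knockout-labelled and 1344 in control islets in its brightest probe set. With the mean over all probe sets Stub1 was at 0.38 and Ahsa1 at 0.11, so both moved and Ahsa1 changed sign.

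The chaperonins are barrel-shaped complexes that enclose a folding protein. The mitochondrial pair is Hspd1 (Hsp60) and its lid Hspe1 (Hsp10), which are transcribed in opposite directions from a shared promoter. Hspd1 had 1405 in knockout-labelled and 1643 in control islets (log2 ratio -0.23). Hspe1 had 496 in knockout-labelled and 497 in control islets (log2 ratio -0.0029) in its brightest probe set, an _s_at type that can bind other transcripts. Its other probe set gave 292 in knockout-labelled and 464 in control islets (log2 ratio -0.67), so the 2 probe sets of Hspe1 disagreed.

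The window of Hspe1 and that of Chordc1 are shown because they hold overlapping matches of 3 alternating units, which join into the longer runs in capitals, and neither gene was past 1.5-fold in its brightest probe set. They lie on the plus strand at chr1:55087898-55088197 and chr9:18292017-18292316.
Hspe1: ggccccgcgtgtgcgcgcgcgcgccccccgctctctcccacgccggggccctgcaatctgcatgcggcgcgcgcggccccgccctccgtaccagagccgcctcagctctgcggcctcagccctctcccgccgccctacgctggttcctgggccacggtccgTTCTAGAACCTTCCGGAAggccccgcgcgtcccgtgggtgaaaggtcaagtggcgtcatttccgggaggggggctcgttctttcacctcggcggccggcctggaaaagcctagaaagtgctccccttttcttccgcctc
Chordc1: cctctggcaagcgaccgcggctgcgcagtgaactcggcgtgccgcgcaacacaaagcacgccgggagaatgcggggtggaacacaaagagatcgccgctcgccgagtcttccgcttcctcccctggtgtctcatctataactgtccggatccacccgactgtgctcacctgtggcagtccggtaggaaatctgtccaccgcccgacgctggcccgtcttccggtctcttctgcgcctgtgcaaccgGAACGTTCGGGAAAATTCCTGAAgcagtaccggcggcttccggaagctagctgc
In Hspe1, 2 overlapping matches begin 89 and 84 bases before the start site, and 285 of these 300 bases are also part of an Hspd1 window on the opposite strand. In Chordc1, 3 overlapping matches span the start site.

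The cytosolic chaperonin CCT folds actin and tubulin. Its 7 measured subunit genes had log2 ratios from -0.079 (Cct7) to 0.21 (Cct8), with a median of 0.066, and 5 of the 7 were above 0. Cct8 had 729 in knockout-labelled and 632 in control islets. Cct5 had 1717 in knockout-labelled and 1659 in control islets, and Tcp1 had 1711 in knockout-labelled and 1755 in control islets. The subunit genes Cct2, Cct3 and Cct4 were at 0.066, 0.076 and 0.070. The eighth subunit gene of the complex in most tissues, Cct6a, was not on the member list and was at -0.048.

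Of the 2 listed heat shock factors, which bind heat shock elements, Hsf2 was measured. It had a signal of 26.5 in knockout-labelled islets and was under the floor in control islets (18.0), so it was at least 1.23-fold higher. A signal this close to the floor can be background. Its 1 other probe set was under the floor on both arrays.

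**Figure D4:**
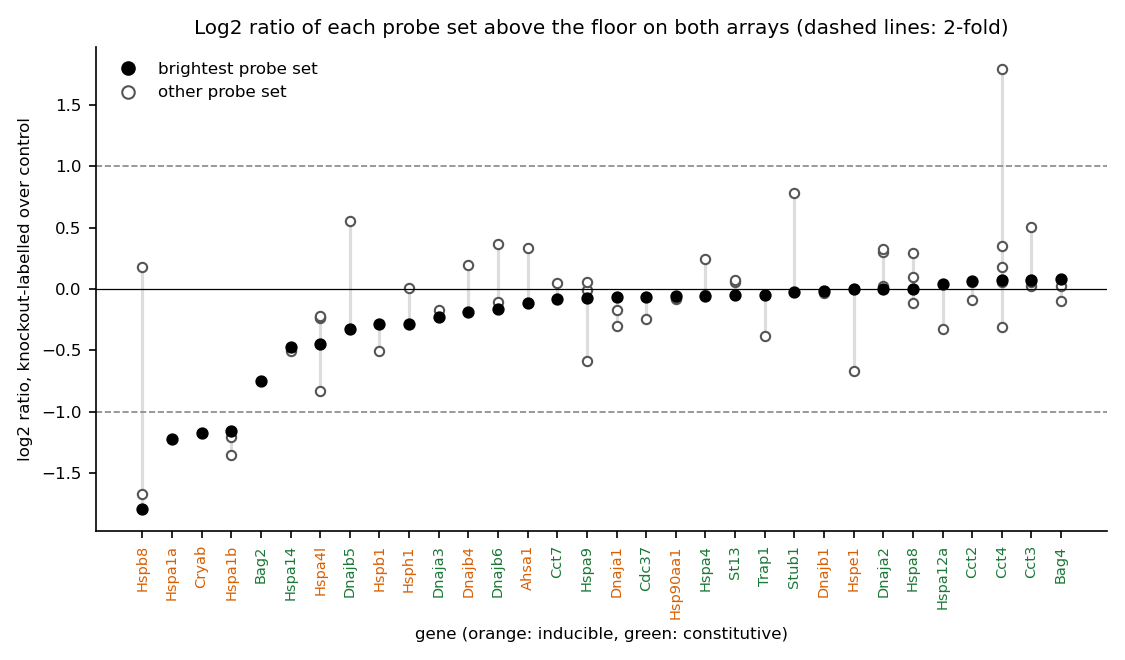
Log2 ratio of knockout-labelled over control for every probe set above the floor on both arrays, for genes with at least 2 such probe sets and for Hspa1a, Cryab and Bag2, with the brightest probe set filled, others open and 2-fold as dashed lines. The probe sets of Hspa1b agree below -1, Hspb8 has 1 of 3 above 0, and most other genes lie around 0 with single weaker probe sets apart.

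Of the 29 members with at least 2 probe sets above the floor on both arrays, 16 had probe sets on both sides of 0. Hspa1b and Hspa4l were among the genes whose probe sets were all lower in knockout-labelled islets.

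Members were compared by class, with 18 genes known as heat-inducible and 30 taken as constitutive. The median log2 ratio was -0.15 over the 18 inducible genes and -0.042 over the 28 constitutive genes measured. The difference of the medians was -0.11. At least 2-fold lower were 4 of 18 inducible genes and 0 of 28 constitutive genes. The classes were set with earlier results of these data known, so these counts are not independent of the values. Since the classes have no replicate arrays, the difference between them was not tested. Over the 9 genes with the most marked heat response (Hspa1a, Hspa1b, Hsph1, Hsp90aa1, Hspb1, Hspb8, Cryab, Dnajb1 and Bag3) the median was -0.29 and the range -1.79 to 0.11. Within these 9 genes, Hspa1a, Hspa1b, Hspb8 and Cryab were below -1, Hsph1 and Hspb1 were at -0.29, and Hsp90aa1, Dnajb1 and Bag3 were between -0.057 and 0.11. The 9 other inducible genes had a median of -0.068 and none past 1.5-fold. Counting Hspa1a and Hspa1b as 1 gene left 3 members past 2-fold.

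By compartment, the 5 mitochondrial chaperone genes (Hspa9, Trap1, Hspd1, Hspe1 and Dnaja3) were all slightly below 0, from -0.23 to -0.0029, with a median of -0.074. Below 0 were also 69.6% of all measured members and 49.8% of all genes. Hspe1 was at 0.0019 with the arrays quantile normalised, so its sign depended on the scaling. The 40 cytosolic ones had a median of -0.051 and ran from -1.79 to 0.21. The difference between compartments was not tested.

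A wider list of chaperone and co-chaperone genes was chosen by family, with earlier results of these data known. It held 87 genes, of which 82 had a probe set and 69 passed the floor. None was at least 2-fold lower or higher, 3 were at least 1.5-fold lower and 3 at least 1.5-fold higher, and the median was -0.050. The first of these counts rests on Hspbap1, which was just inside 2-fold and passed it with the arrays divided by their medians (-1.001) or quantile normalised (-1.01). Of those measured above the floor in both preparations, the values farthest from 0 were those of Hspbap1, whose product binds Hspb1, with 24.2 in knockout-labelled and 48.2 in control islets (-0.99), and Dnajc16 with 62.1 in knockout-labelled and 33.5 in control islets (0.89). The Hspbap1 value comes from an _x_at probe set with a knockout-labelled signal just above the floor of 21.7. It was -0.46 with the mean over probe sets and -0.68 with a pseudocount, and gave no value without _x_at and _s_at probe sets or with a floor at the 70th percentile. Dnajc16 was at 0.63 with the mean over probe sets and 0.66 with a pseudocount. Lonp1, the mitochondrial matrix protease, was at 342 in knockout-labelled and 533 in control islets (-0.64). Hscb, a mitochondrial J protein of iron-sulfur cluster assembly, was at 134 in knockout-labelled and 87.2 in control islets (0.62). The prefoldin gene Pfdn6 was at -0.62, with Pfdn1 at 0.47, Pfdn2 at 0.15 and Pfdn4 and Pfdn5 at 0.037 and -0.0062. Fkbp5, an Hsp90-binding immunophilin induced by glucocorticoids, was at 133 in knockout-labelled and 199 in control islets (-0.58), and at -0.35 with the mean over its probe sets.

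Other gene lists were shifted to different degrees on the same arrays, and their part in the lower chaperone signals was not tested. All 18 hypoxia response genes were below 0, with a median of -0.76 and a summed signal of 14677 in knockout-labelled and 22926 in control islets, and the brightest were Aldoa (3339 and 4899) and Pgk1 (2866 and 4012). Of 14 measured immediate early genes 10 were below 0, with a median of -0.20 and summed signals of 7810 in knockout-labelled and 9445 in control islets, and the brightest were Ier3 (1270 and 2407) and Dusp1 (1410 and 2082). This list went both ways, from -0.94 to 0.83. Nr4a1 was higher, with 1366 in knockout-labelled and 770 in control islets, and Zfp36 and Myc were at 0.44 and 0.40.

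The islet hormone genes, defining for the labelled tissue, were at high signals on both arrays, with a summed signal of 50186 in knockout-labelled and 58097 in control islets over 5 genes, among them Iapp (14244 and 15324) and Gcg (10292 and 11215). Ppy was the farthest from equality, with 8095 in knockout-labelled and 12702 in control islets (-0.65). Ins2 had 7786 in knockout-labelled and 9194 in control islets (-0.24), and Sst was at 0.016. Acinar markers were lower, with 7 of 8 below 0, a median of -0.97 and summed signals of 18781 in knockout-labelled and 34965 in control islets, led by Cela3b (5590 and 8913) and Ctrb1 (2834 and 5450). The exception was Bhlha15, with 741 in knockout-labelled and 714 in control islets (0.055). Duct markers had a median of -0.30 over 6 genes and sums of 7551 in knockout-labelled and 8638 in control islets, with Krt18 at 2903 and 3509 and Krt8 at 1767 and 2339. Krt19 was at 41.0 and 51.1, Car2 was at least 2.66-fold lower (11.2 and 57.8) and Epcam was higher (1885 and 1547). Sox9 and Cftr were under the floor on both arrays. Macrophage markers were higher, with 11 of 12 above 0, a median of 0.60 and sums of 2033 in knockout-labelled and 1263 in control islets, led by Ctss (445 and 299) and C1qa (404 and 262).

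Small heat shock proteins are abundant in muscle, and which cells of these islets express Hspb8 and Cryab was not tested. The lists also held stromal and muscle markers. Of 12 such genes 8 were measured, with a median of -0.27 and sums of 783 in knockout-labelled and 771 in control islets, led by Vim (349 and 292) and Rgs5 (246 and 197). Of the muscle genes, Acta2 had 47.4 in knockout-labelled and 61.2 in control islets (-0.37), and Des, Myh11 and Tagln were under the floor on both arrays. Of the fibroblast matrix genes, Dcn was at least 2.84-fold lower (19.8 in knockout-labelled and 61.6 in control islets) and Col3a1 was at -1.03 (22.5 in knockout-labelled and 46.0 in control islets). Col1a2 was at -0.18 (23.4 in knockout-labelled and 26.5 in control islets), Lum was at least 1.46-fold lower (19.7 in knockout-labelled and 31.7 in control islets) and Col1a1 was under the floor on both arrays. Endothelial markers had a median of -0.19 over 8 genes and sums of 927 in knockout-labelled and 1013 in control islets, with Esam at 192 and 232 and Eng at 210 and 212. Of these 8 genes 7 were below 0, the lowest being Cdh5 at -0.46. Kdr went the other way, with 72.8 in knockout-labelled and 40.9 in control islets (0.83). The lowest signal on each array was 0.1, so a signal above 0 does not show that a marker was detected. Rbpjl of the acinar list and Tie1 and Vwf of the endothelial list were under the floor on both arrays.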

How the data were processed

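Pancreatic islet RNA was measured on 1 Affymetrix array for knockout-labelled and 1 for control islets. The deposited values are linear intensities, MAS5 signals per probe set, per the submitters' processing notes, which name MAS5. Version and scaling target are not given in the sources used here, nor are detection calls. Mismatch signals are subtracted by this algorithm, which makes weak signals noisy. Medians were 21.7 in knockout-labelled and 21.6 in control islets over 45037 probe sets, so no further scaling was applied. Genes were named through the platform annotation (34945 probe sets with 1 gene). Promoters came from RefSeq (GRCm38.p6).

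The members, the inducible and constitutive classes and the other lists were chosen with earlier results of these data known. All members could be named, and of the wider chaperone list the 6 with the largest log2 ratio above the floor on both arrays and any past 2-fold. Of each other list the brightest 2 were named. Further genes were chosen after their values were seen (Pfdn1, Pfdn2, Pfdn4, Pfdn5, Cct6a, Hspb2, Ins2, Sst, Ppy, Bhlha15, Acta2, Des, Myh11, Tagln, Dcn, Lum, Col1a1, Col1a2, Col3a1, Nr4a1, Zfp36, Myc, Krt19, Car2, Epcam, Sox9, Cftr, Rbpjl, Kdr, Cdh5, Tie1 and Vwf). The ratio step was tested on simulated data. With 1 array per group there is no error estimate. Alternatives were other floors, a pseudocount, other scalings, other probe set rules, other fold limits and other class definitions. Computation used Python 3.11.15, pandas 2.3.3 and statsmodels 0.14.6.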

Additional observations from a re-analysis of the deposited data

How the results depend on the processing

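Over the alternatives, the number of members at least 2-fold lower was 3 or 4. It was 3 with the mean over probe sets, the floor at the 70th percentile, the pseudocount, or Hspa1a and Hspa1b as 1 gene. At a limit of 3-fold 1 member, Hspb8, was lower, and at 1.5-fold 5 were. No member was higher by the fold limit used under any of these alternatives. The median over the members stayed between -0.058 and -0.027, that of the inducible class between -0.29 and -0.12 and that of the constitutive class between -0.049 and -0.023. The difference of the class medians stayed between -0.25 and -0.075. Log2 ratios lay between -1.23 and -1.19 for Hspa1a, -1.24 and -1.12 for Hspa1b, -1.82 and -1.09 for Hspb8 and -1.19 and -0.48 for Cryab. Without probe sets ending in _x_at or _s_at, Hspe1 was at -0.67, Dnajb5 at 0.56 and Hspa8 at 0.29. With the mean over probe sets, Hspe1 was at -0.34, Dnajb4 at 0.028, Dnajb5 at -0.0039 and Cct4 at 0.30. No paired analysis was possible because each group has 1 array. Signals near the floor, as for Hsf2, Hspa12a and Dnajb5, limit what can be read from their ratios.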

Other observations

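Weaker probe sets of some chaperone genes gave values apart from the brightest. A weak _x_at probe set of Cct4 had 82.2 in knockout-labelled and 23.7 in control islets (log2 ratio 1.79), while the 5 others above the floor on both arrays lay between -0.31 and 0.35. An _x_at probe set of Stub1 had 445 in knockout-labelled and 258 in control islets (log2 ratio 0.79), against -0.022 in its brightest. For Dnajb5, another probe set had 39.1 in knockout-labelled and 26.6 in control islets (log2 ratio 0.56), against -0.32 in the brightest.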
